A study of Oryza nivara and Oryza rufipogon with 42 samples.

Results

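The genes described here had almost no tags in flag leaves and heading panicles of 2 wild rices and were read in flowering panicles. Members were chosen from digital gene expression (DGE), which counts a short tag from each poly(A) transcript, on the deposited TPM scale, which here means tag counts per 1e+06 counts of the library, not divided by gene length. A gene was taken when its mean was under 2 TPM in all 4 flag leaf and heading panicle groups. The rule then takes up to 150 such genes with the highest smaller flowering mean of the 2 species, but 137 of the 20134 genes in the table met the limit, which is 0.680%. All 137 were kept, so the flowering means removed no gene and served for the order alone. The 4 loci that the rule leaves out did not meet the limit either. Nearest to the limit, LOC_Os09g29990 was inside with a largest mean outside flowering of 1.99998, and LOC_Os01g36740 was outside with 2.00298 TPM.

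The study compared Oryza nivara, an annual, with Oryza rufipogon, a perennial, in wild accessions from India, Thailand, Nepal and Myanmar raised in a greenhouse. Panicles were sampled both when heading and when flowering, and flag leaves when heading, for 36 DGE libraries, 6 plants for each species and tissue, 3 collected in 2009 and 3 in 2010. The labels name no treatment and no transgene. A further 6 paired-end RNA-seq libraries, 1 per species and tissue, carry the plant numbers of DGE libraries. Plants are named by the number in their title, and the set of plants differs in part between tissues.

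At flowering, rice spikelets open, anthers shed mature pollen, and fertilised ovaries begin to fill. Mature pollen carries a store of transcripts of its own, made late in anther development, while the tapetum, the nurse layer of the anther, is active earlier and then breaks down. A flowering panicle is therefore a mixture of open and closed spikelets, pollen, ovaries and green tissue. In such bulk samples, fewer cells of a type and less RNA per cell cannot be told apart. The files pair no locus with a symbol or description, so the members are given by locus number with no role. The symbols of the marker genes below come from general knowledge of rice loci and were not checked against an annotation.

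DGE libraries held 1725036 to 4173433 counts, with 0.731% to 2.83% of the counts outside the listed genes. Flag leaf libraries carried 17178 to 60611 TPM of 4 leaf markers (GAPB, LHCB1.3 and a pair of RBCS loci), against 166 to 6930 in heading panicles and 1841 to 23222 in flowering panicles. Heading panicles carried 534 to 31887 TPM of the tapetum and young anther list, of which 11 of 12 loci are in the table. The late pollen list (6 of 8 loci in the table) reached 56.8 to 5349 TPM in flowering panicles and 3.49 to 19.4 in flag leaves. None of the 137 genes belongs to a marker list. Libraries that stand apart are the flowering panicles of O. nivara plants 34 and 197, low in OsMADS62, OsMADS63 and OsMADS68, MADS-box genes of late pollen (summed 6.02 and 6.47 TPM, against 52.1 to 296 in the other 10). These 2 panicles differ in the leaf markers, where plant 34 is the lowest of the 12 (1841 TPM), plant 197 the highest (23222) and the others hold 2499 to 15643. The heading panicle of O. nivara plant 52 stands apart in the other way, at 1238 TPM of the late pollen list against 3.42 to 31.1 in the other 5 O. nivara plants, and it had the lowest tapetum sum (534).

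**Figure D1:**
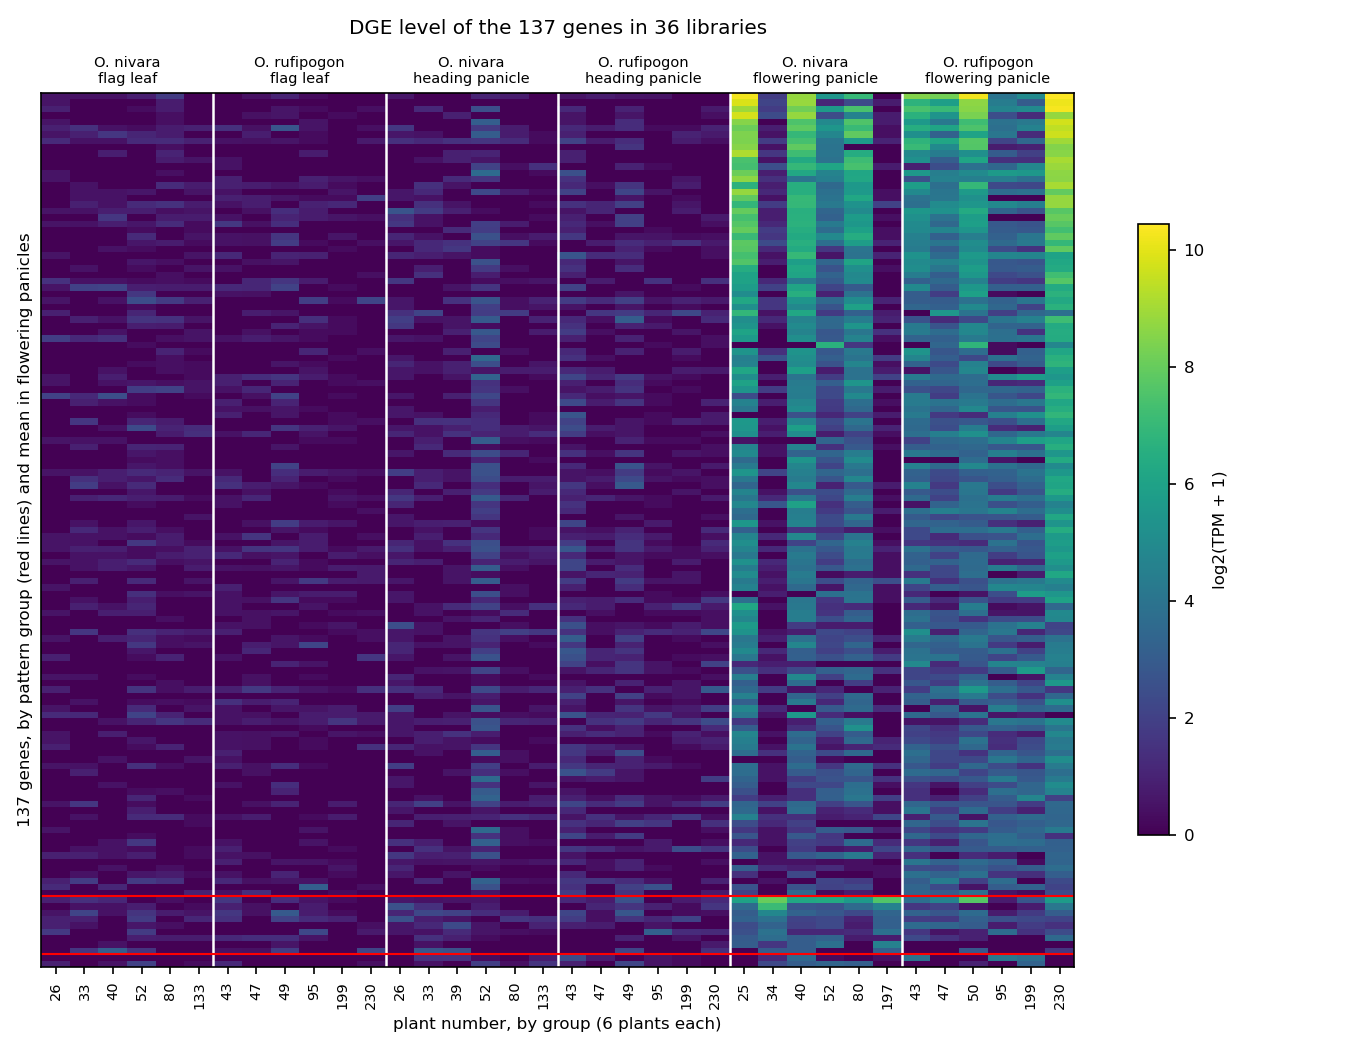
DGE level of the 137 genes (rows, by pattern group and mean flowering level) in 36 libraries (columns, by plant number within species and tissue), as log2(TPM + 1). Flowering panicles are bright except in O. nivara plants 34 and 197. The summed level of the 9 genes between the red lines is highest in those plants, but not every one of them is high in both.

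The summed level of the 137 genes was from 23.6 TPM (O. rufipogon plant 199) to 93.7 (O. nivara plant 52) in flag leaves. Heading panicles ranged from 36.0 to 371 with a median of 67.9, and flowering panicles from 361 to 17555 with a median of 2231 TPM. The rule fixes this order, which is given as a description. Within heading panicles the sum was 371 in O. nivara plant 52, where 120 of the 137 genes had a tag, then 222 in O. rufipogon plant 43 and 170 in O. rufipogon plant 49. Those 3 libraries also had the highest late pollen sums among heading panicles (1238, 334 and 250 TPM), and their part in the result was not tested. The lowest flowering sum, 361 in O. nivara plant 197, lay below the highest heading sum, so flowering and heading libraries overlapped.

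The genes were not silent outside flowering panicles. Each had a tag somewhere among the 24 other libraries, with 3 to 108 counts per gene in all and a median of 38. The level of 5 TPM was reached in a flag leaf or heading panicle library by 40 of the 137, and the highest such value was 11.7. Every gene of the deposited table reaches 5 TPM in at least 4 libraries, so the members owe their place in the table mainly to flowering panicles.

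**Figure D2:**
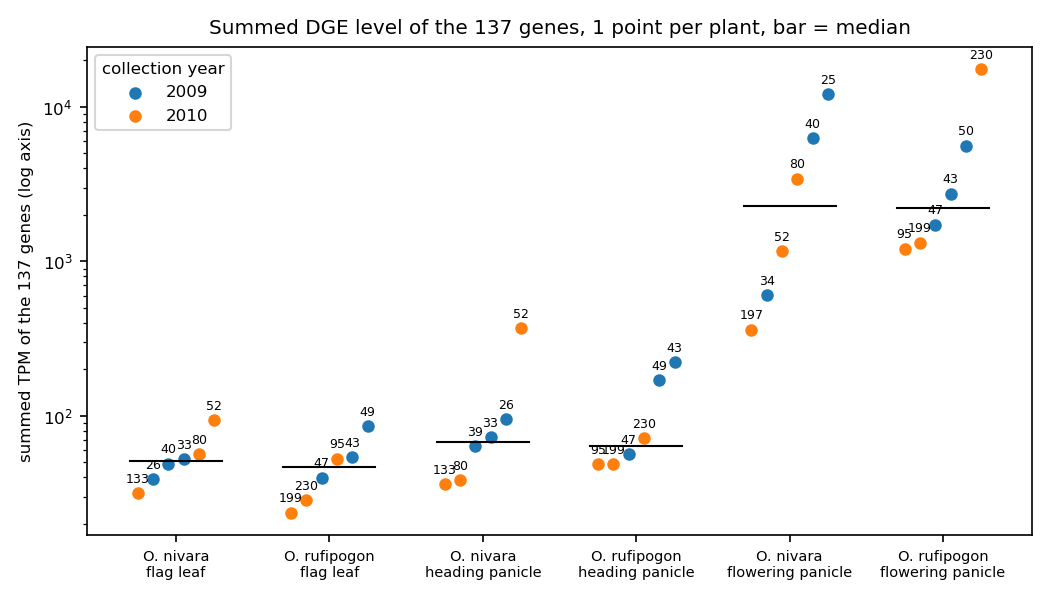
Summed TPM of the 137 genes (log axis) for each plant, by species and tissue, coloured by collection year, with a bar at each group's median. The flowering panicles spread from 361 to 17555, a wider range than the 23.6 to 93.7 of flag leaves.

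The members differed widely in level. The smaller of the species means in flowering panicles was at least 50 TPM in 23 genes, at least 5 in 104 and under 2 in 11, with a median of 9.59. The 12 highest genes by that measure made up 46.5% of the summed level of all members in flowering panicles. First among them was LOC_Os02g10530, which had a lowest, median and highest value of 0, 86.2 and 1236 TPM in the 6 O. nivara plants and 15.3, 330.2 and 1401 in the 6 O. rufipogon plants. In both species the level differed widely between plants, and the species overlapped.

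LOC_Os08g38250 followed, at 0.719, 3.87 and 934 TPM (lowest, median, highest) in O. nivara and 7.23, 81.3 and 1165 in O. rufipogon. This gene was almost absent elsewhere, with 3 counts in the 24 other libraries, all of them from O. nivara flag leaves. LOC_Os06g47110 stood at 0, 112 and 485 TPM in O. nivara and 25.2, 153 and 1268 in O. rufipogon. LOC_Os12g37660 stood at 0.719, 14.04 and 880 in O. nivara and 1.45, 71.4 and 444 in O. rufipogon. In each of these 4 genes the highest O. nivara plant was 25 and the highest O. rufipogon plant was 230. The other 8 of the first 12 were LOC_Os03g44750, LOC_Os06g40890, LOC_Os01g09730, LOC_Os11g36230, LOC_Os07g47120, LOC_Os09g09460, LOC_Os07g13580 and LOC_Os06g05272, with levels between 362 and 858 TPM in plant 230 and between 162 and 568 in plant 25.

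Variation from plant to plant was larger than the means in most members. The coefficient of variation over the 12 flowering panicles exceeded 1 in 102 of the 137 genes and had a median of 1.28. The number of members at 5 TPM or more was 8 in plant 197 and 10 in plant 34, against 61 to 121 in the other 10 flowering panicles. No member reached 5 in all 12 flowering libraries, 46 had a tag in all 12, and 91 were at 0 in at least 1. The highest of the 12 plants was O. rufipogon 230 for 73 members and O. nivara 25 for 24. Taken as sums, O. nivara plants had 12065 (25), 605 (34), 6298 (40), 1169 (52), 3424 (80) and 361 (197) TPM. The O. rufipogon plants had 2738 (43), 1724 (47), 5602 (50), 1207 (95), 1320 (199) and 17555 (230).

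Clustering on the likeness of the members' profiles over the 12 flowering panicles (average linkage on 1 minus Pearson's r of log2(CPM + 1), where CPM is the TMM-scaled count per 1e+06, divided into 3) put 126 genes in a common pattern, 9 in an opposite pattern and 2 apart. In the common pattern, the sum was lowest in plants 197 (68.3 TPM) and 34 (116) and lay between 1037 and 17456 in the other 10. Plants 34 and 197 both lay below all other 10 flowering panicles in 79 of the 137 members (57.7%), against 4.68% of all genes in the table. The members at 0 in both plants numbered 25. The members owe their place in the table mainly to flowering panicles and vary together. Nothing is therefore read from the contrast with all genes.

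The opposite pattern rested on plants 34 and 197. Without them the largest group held 132 of the 137 genes and took in most of its 9 genes. Of the 9 genes of the opposite pattern, 6 peaked in plant 34, 2 in plant 197 and 1 in O. rufipogon plant 43. Their sum was 484 TPM in plant 34, 292 in plant 197 and 245 in O. rufipogon plant 50, and 17.6 to 122 in the other 9. LOC_Os07g48620 led them, with 257 TPM in plant 34, 209 in plant 50 and 197 in plant 197, and from 0.740 in plant 95 to 79.5 in plant 52 elsewhere. LOC_Os04g38860 reached 140 in plant 34 and 23.4 in plant 197, and at most 16.6 (plant 230) in the other 10. LOC_Os07g25690 was at 27.96 in plant 34, and at 9.70 in plant 197, which lay within the range of the rest (0.740 to 11.6). Plants 34 and 197 were both above all other 10 in 2 members, against 3.29% of all genes in the table. The remaining genes, LOC_Os12g29650 and LOC_Os02g02230, peaked in O. rufipogon plant 95 (17.0 TPM) and O. nivara plant 52 (9.73).

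**Figure D3:**
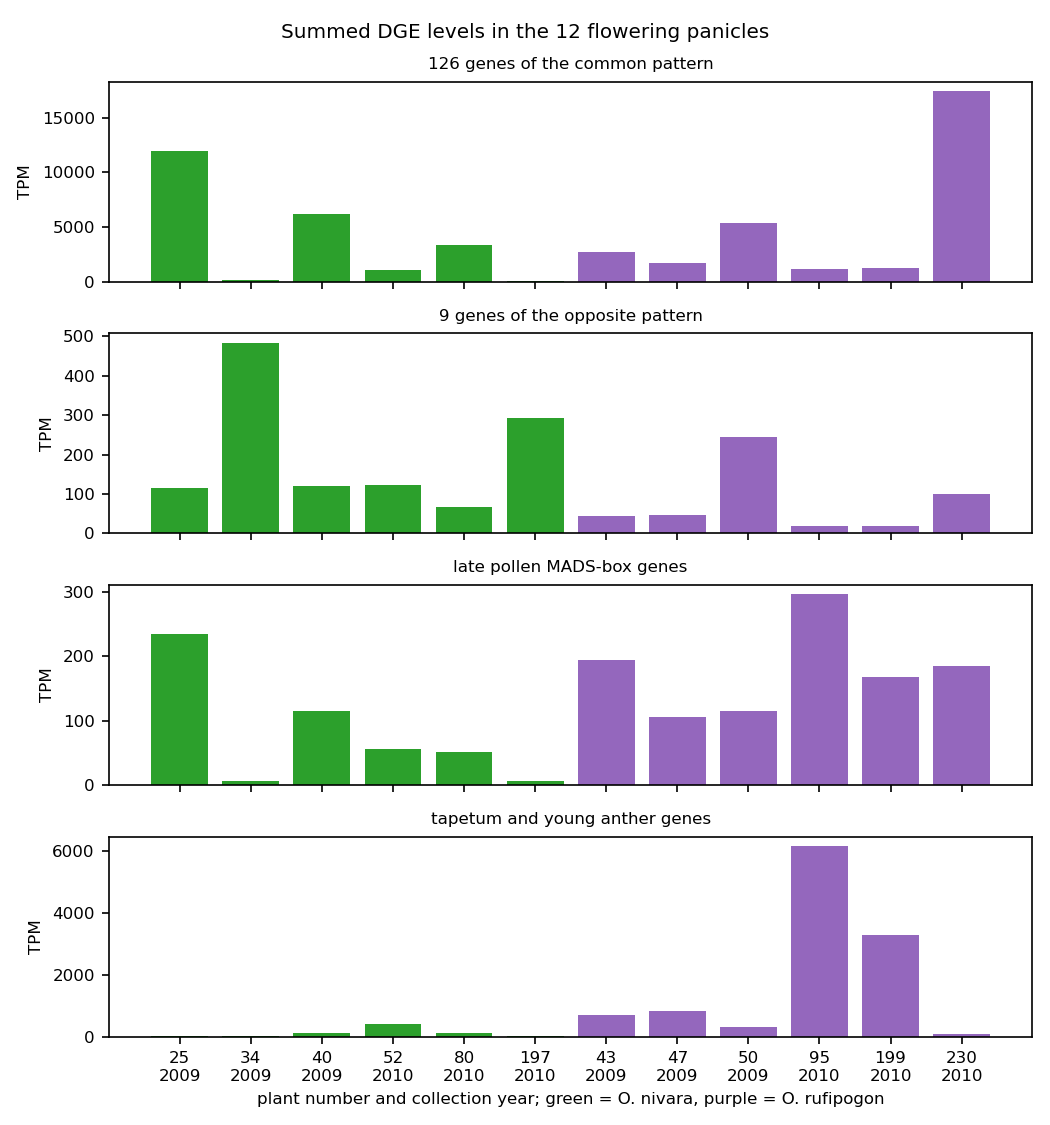
Summed TPM in each of the 12 flowering panicles (bars, by plant and collection year) of the common pattern, the opposite pattern, 3 late pollen MADS-box genes and the tapetum and young anther list. The common pattern and the MADS-box genes are lowest in plants 34 and 197, where the opposite pattern is highest, and the tapetum genes are highest in plants 95 and 199.

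Over the 12 flowering panicles, 127 of the 137 members (92.7%) had an r above 0 with the summed late pollen MADS-box genes. Among all genes of the table the share was 47.8%. The members owe their place in the table mainly to the same libraries and vary together, so nothing is read from that contrast. The MADS-box factors act in pollen maturation, and they were among the loci that the rule leaves out. Over the 12 flowering panicles the r of a member with their sum (log2(CPM + 1)) had a median of 0.67 in the common pattern and -0.46 in the opposite pattern, against -0.02 over all genes of the table. The pattern groups were cut from the same values in these libraries, so nothing is read from their opposite signs. The points share library depth and composition, and 2 of them, plants 34 and 197, lie far from the rest. Without these plants (n = 10), the median r was 0.28 in the common pattern, -0.04 in the opposite pattern and -0.01 over all genes. Over all 137 members, whatever their group, the median was 0.66 with these plants and 0.28 without them. The profiles most like the MADS-box sum were those of LOC_Os01g55850 (r = 0.92, and 0.75 without plants 34 and 197), LOC_Os01g43530 (0.91 and 0.61), LOC_Os01g45350 (0.89 and 0.49), LOC_Os08g41650 (0.88 and 0.62) and LOC_Os09g29990 (0.88 and 0.55).

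The profile of the endosperm starch genes (GBSSI, BEIIb, SSIIa, AGPL2, ISA1 and PUL, enzymes that build starch in the grain) gave lower values, with a median r of 0.51 in the common pattern, -0.43 in the opposite pattern and 0.00 over all genes (n = 12). Over all 137 members it was 0.49. The limit of the pattern groups holds here too, and these r were not taken without plants 34 and 197. LOC_Os01g55850 had the highest r here too (0.90), followed by LOC_Os12g06830 (0.85), LOC_Os02g30810, LOC_Os12g04700 and LOC_Os01g45350 (0.83 each). The sum of the endosperm and young grain list, with 9 of its 17 loci in the table, was lowest in plants 34 (95.5 TPM) and 197 (115) and reached 915 in O. rufipogon plant 43. BEIIb, its largest locus, was lowest there too (37.8 and 30.5). Other loci were not: GBSSI was at 17.3 in plant 197 and 0.877 in plant 25, and AGPL2 at 28.4 in plant 197 and 8.98 in plant 80. AGPL2 had higher means in flag leaves (36.8 in O. nivara, 41.2 in O. rufipogon) than in flowering panicles (18.5 and 30.4). Levels of the late pollen list were likewise lowest in plants 34 (56.8) and 197 (272). Floral organ MADS-box genes were at 809 and 826 in these plants, below the 997 to 2138 of the rest. The part of these tissues in the members' levels was not tested.

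Within flowering panicles of O. rufipogon plants 95 and 199 the balance within the members was different. The first 12 genes made up 12.5% and 12.7% of the members' sum there, against 29.0% to 57.4% in the other 8 flowering panicles apart from plants 34 (4.26%) and 197 (1.29%). These panicles also had the highest tapetum and young anther sums of the 12, at 6153 and 3283 TPM, where the other 10 held 23.7 to 813. The sum of the late pollen MADS-box genes was not low in them (296 and 168), but most of it was OsMADS63 (248.8 and 131.6). OsMADS62 stood at 16.5 and 13.98 TPM, below the 18.3 to 82.6 of the other O. rufipogon flowering panicles. OsMADS68, at 31.1 and 22.4, lay within their range (16.4 to 50.9). In plant 52 the heading panicle already had 22 members at 5 TPM or more. Its flowering panicle had 61, the fewest after plants 34 and 197.

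The comparison between species asks whether the annual and the perennial differ in these genes at flowering. Of the 137 genes, 3 were lower in O. nivara and 0 were higher (edgeR quasi-likelihood F test with collection year as a term, adjusted p under 0.05 over 18743 genes). The share is 2.19%, against 1.26% of all genes called, 0.848% lower and 0.416% higher in O. nivara. At an unadjusted p under 0.05 there were 14 members, 1 higher and 13 lower, which is 10.2% against 21.1% of all genes tested. DESeq2 called 1 higher and 11 lower (8.76% of members, against 10.6% of all genes), and limma-trend 0 and 6 (4.38% against 1.91%). The rule used the species means of these libraries for the order alone, but the members owe their place in the table mainly to the same libraries. Nothing is read from these counts.

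LOC_Os06g28990 had a lowest, median and highest value of 0, 0.301 and 0.430 TPM in O. nivara and 0.241, 8.96 and 16.1 in O. rufipogon. It was at 8.14 or more in 5 of 6 O. rufipogon plants and at 0.241 in plant 199, so the groups overlapped through that plant alone. The log2 difference, O. nivara minus O. rufipogon, was -4.92 (SE 0.83, edgeR adjusted p = 0.0253). LOC_Os10g28260 was at 0, 0.417 and 1.32 TPM in O. nivara and 1.37, 22.7 and 29.6 in O. rufipogon, with no overlap. Its log2 difference was -5.19 (SE 0.99, edgeR adjusted p = 0.0346). LOC_Os12g15505 was at 0, 0.219 and 9.48 TPM in O. nivara and 3.05, 19.1 and 70.8 in O. rufipogon, with overlap, and its log2 difference was -4.05 (SE 0.80, edgeR adjusted p = 0.0397). In RNA-seq LOC_Os06g28990 stood at 0.0197 RPKM in the O. nivara flowering panicle and 1.83 in that of O. rufipogon, and LOC_Os12g15505 at 0 and 0.616. No member was lower when plant 34, 52, 80, 43 or 95 was left out, or when 34 and 197 both were. In those fits 0.0685% to 0.193% of all genes were lower. The count was 6 without plant 40 (4.38%, against 2.02% of all genes). It was 2 without 197 or 47 (1.46%, against 0.231% and 0.402%). It was 1 without 50 or 199 (0.730%, against 0.240% and 0.305%).

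LOC_Os09g28780 differed in the other direction. It was at 0, 7.48 and 23.0 TPM in O. nivara and had 0 counts in the 6 O. rufipogon flowering panicles, yet it was not called (edgeR adjusted p = 0.0605). LOC_Os04g26550, named after its values were seen, was read in few plants of either species. It reached 102 TPM in O. nivara plant 52 and 114, 26.5 and 10.1 in O. rufipogon plants 50, 230 and 47, stood at 2.15 in plant 80 and 0.247 in plant 95, and had no tag in the other 6. RNA-seq, made from flowering panicles with plant numbers 40 and 47, gave 0 and 16.4 RPKM, where DGE gave 0 and 10.1 TPM.

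The median species difference over the 137 genes was -0.57 on the log2 scale, against 0.02 over all genes tested. It was 0.69 without O. rufipogon plant 230, between -1.03 and -0.05 when any other single plant was left out, and 0.15 without O. nivara plants 34 and 197 together. In the same panicles the marker sums of the 2 species overlapped, and their differences were not tested. The tapetum and young anther sum was 23.7 to 395 TPM in O. nivara and 92.5 to 6153 in O. rufipogon, and the endosperm and young grain sum 95.5 to 500.4 and 375 to 915. The late pollen MADS-box sum was 6.02 to 236 TPM in O. nivara and 106 to 296 in O. rufipogon, and the leaf marker sum 1841 to 23222 and 2499 to 13392. The part of these tissues in the species difference was not tested. By year, the sums were 605 to 12065 TPM in O. nivara and 1724 to 5602 in O. rufipogon among plants of 2009. Among plants of 2010 they were 361 to 3424 in O. nivara and 1207 to 17555 in O. rufipogon. On the mean log2(TPM + 1) scale, 67 of the 137 genes were higher in O. nivara in 2009 and 121 were lower in 2010, with median differences of -0.02 and -1.38 (all genes -0.19 and 0.16). Both held for 56 genes (40.9%), against 11.7% of all genes in the table. The largest class was another, with 65 genes lower in O. nivara in both years. A further 11 were higher in both, and 5 were lower in 2009 and higher in 2010. The shares of all genes in those classes were not taken. The members vary together, so these are not separate observations. Within years 0 members were called by edgeR. In 2009, 8 of 113 tested (7.08%, against 13.5% of all genes) were at an unadjusted p under 0.05. In 2010, 25 of 115 tested were (21.7%, against 17.0% of all genes). The median edgeR log2 difference of the members tested was 0.99 in 2009, with 93 of them positive, and -2.09 in 2010. It is on another scale and over fewer members than the -0.02 and -1.38 above. In 2009 the direction of the median thus depended on the scale and the genes taken.

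**Figure D4:**
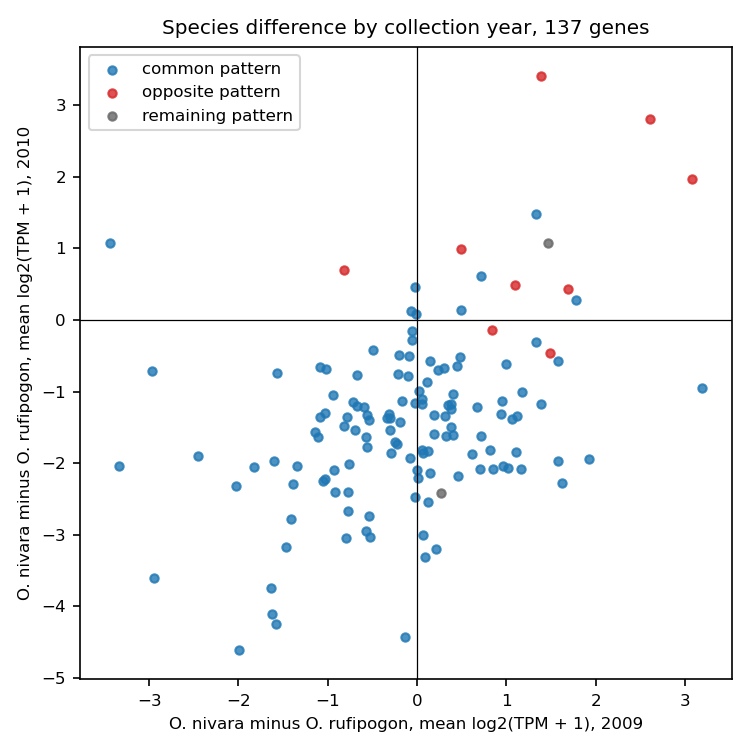
Species difference (O. nivara minus O. rufipogon, mean log2(TPM + 1) of 3 plants each) among plants of 2009 (horizontal) and of 2010 (vertical) for each of the 137 genes, coloured by pattern group. Of the genes, 121 lie below 0 in 2010 and 67 lie to the right of 0 in 2009.

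The difference of the species difference between years was tested itself. The interaction term was called in 0 members and 0 of all 19243 genes tested by edgeR (0% of all genes), with 28 members (20.4%) and 9.06% of all genes at an unadjusted p under 0.05. Of these 28, 27 had a species difference that was lower in 2010. DESeq2 called 2 members, both in that direction (1.46%, against 0.951% of all genes), and limma-trend 0. The members' median interaction was -3.31 on the log2 scale, and -0.94 without plant 230, and the lowest edgeR adjusted p of a member was 0.317.

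Collection year is the one batch that the labels give. Over all genes tested in flowering panicles, 17.7% were called between years, 9.56% higher and 8.18% lower in 2010 (edgeR, year term of the same model). Of the 137 members, 7 were higher (5.11%) and 1 was lower (0.730%), and the median log2 difference, 2010 minus 2009, was -0.04. LOC_Os11g28420 had a lowest, median and highest value of 0, 0.241 and 1.31 TPM in the 6 plants of 2009 and 0.359, 14.05 and 55.4 in those of 2010. All plants of 2010 but 197 lay above every plant of 2009, and the log2 difference was 5.64 (SE 1.04, edgeR adjusted p = 0.00396). LOC_Os01g29240 stood at 0, 0.646 and 2.19 TPM in 2009 and 0, 15.6 and 31.7 in 2010, with plant 197 again at the low end (log2 4.08, SE 0.97, edgeR adjusted p = 0.0133).

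LOC_Os12g14540 was the member that was lower in 2010. It stood at 0.430, 12.9 and 46.2 TPM in 2009 and 0, 0.426 and 1.46 in 2010, and plant 34 was the plant of 2009 that overlapped with 2010. Its log2 difference was -4.62 (SE 0.91, edgeR adjusted p = 0.00571). In RNA-seq it was listed at 0 RPKM in both flowering panicles, which carry plant numbers of 2009, although DGE read 46.2 and 6.41 TPM in plants 40 and 47. LOC_Os12g15505, lower in O. nivara, was also higher in 2010 (log2 3.33, SE 0.79, edgeR adjusted p = 0.0134). The other 4 called members were higher in 2010 by 1.97 to 2.66 on the log2 scale. Within O. nivara edgeR called 0 of 105 members tested, against 1.496% of all genes, with 6.67% of members and 21.1% of all genes at an unadjusted p under 0.05. Within O. rufipogon it called 6 higher and 1 lower, which is 5.69% of 123 members tested against 5.18% of all genes. The members' median year difference was -1.52 for O. nivara and 1.52 for O. rufipogon. The count of members lower in 2010 was 11 without plant 230 (8.03%, against 7.72% of all genes in that fit). It was 2 without 34 or 197 (1.46%, against 6.07% and 7.04%). The count higher was 4 without plant 34, 80, 43, 47 or 230 (2.92%, against 7.11% to 8.89% of all genes).

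RNA-seq, which the rule did not use, allows the tissue pattern to be read in another assay, with 1 library per species and tissue and so no test. Its libraries carry the plant numbers of DGE libraries that the rule did use, so the pattern is not read in new plants. Values are RPKM, read counts divided by gene length and library depth, and 129 of the 137 genes are in that table. In O. nivara, 106 of the 129 (82.2%) were at least 4-fold higher in the flowering panicle than in both other tissues on the log2(RPKM + 0.1) scale, against 3.76% of the 37497 genes of the table. In O. rufipogon the count was 88 (68.2%), against 2.69%, and in both species 80 (62.0%), against 1.64%. Median RPKM of the members was 12.3 in the O. nivara flowering panicle and 2.96 in that of O. rufipogon, 0.0668 and 0.0883 in the heading panicles, and 0 in both flag leaves. The median log2 difference between flowering and the larger of the other tissues was 5.33 for O. nivara and 3.39 for O. rufipogon. With a pseudocount of 1 RPKM in place of 0.1 the counts were 90, 52 and 49 (2.06%, 1.33% and 1.04% of all genes). The share over all genes includes many with little RNA, since 53.7% reached 1 RPKM in the O. nivara flowering panicle. Among genes at 1 RPKM or more in 1 of the 3 libraries, 102 of 108 members passed in O. nivara (94.4%, against 5.06%). In O. rufipogon 78 of 94 did (83.0%, against 3.57%).

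**Figure D5:**
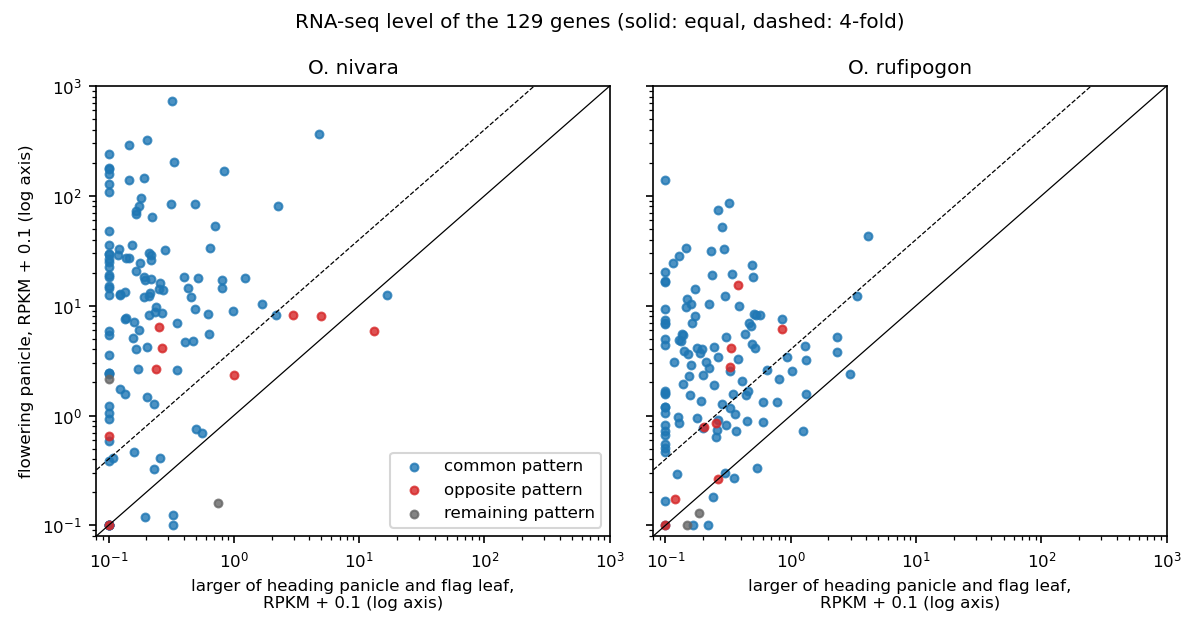
RNA-seq level in the flowering panicle against the larger of heading panicle and flag leaf (RPKM + 0.1, log axes) for the 129 genes, by species, with lines at equality and at 4-fold. Above the dashed line lie 106 genes for O. nivara and 88 for O. rufipogon.

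Ranked by the smaller of the 2 flowering values, the highest members per length were LOC_Os08g30800, at 202 RPKM in the O. nivara flowering panicle and 139.5 in that of O. rufipogon, and LOC_Os11g45730, at 725 and 85.7. LOC_Os06g40890 (322 and 52.3), LOC_Os02g58800 (369 and 43.2) and LOC_Os11g43640 (35.8 and 74.1) followed. Of these, LOC_Os02g58800 was the one above 1 RPKM in flag leaves, at 4.70 and 4.03. LOC_Os11g43640 was low in DGE and went the other way there, at 2.92 TPM in plant 40 and 0.916 in plant 47. At the other end, 9 members were listed at 0 in at least 1 of the flowering panicles and shared the lowest rank. Of these, LOC_Os04g28440, LOC_Os12g09310 and LOC_Os12g14540 were at 0 RPKM in both, while DGE read 20.2 TPM of the first in plant 47 and 12.5 TPM of the second in plant 40.

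Some members did not keep the tissue pattern in RNA-seq. The 4-fold limit was missed in at least 1 species by 49 of the 129. LOC_Os02g27840 was at 16.7 RPKM in the O. nivara heading panicle and 12.4 in the flowering panicle. LOC_Os11g07911, of the opposite pattern, was at 13.1 RPKM in the O. nivara heading panicle. These genes were chosen for mention after their values were seen. In RNA-seq, 6 members were at 1 RPKM or more in the O. nivara heading panicle, 5 in that of O. rufipogon and 4 in each flag leaf, against 108 and 93 in the flowering panicles.

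The assays gave like differences between plants 40 and 47 at flowering. The members were higher in plant 40 by a median log2 of 1.87 in RNA-seq and 1.69 in DGE, against -0.04 and -0.05 over all 19770 genes in both tables. The direction was the same in 109 of the 129 members, 99 of them higher and 10 lower in plant 40. Across the 129 genes the r between the assays was 0.64, and across all genes 0.56. Genes are not independent replicates and the points share their libraries, so this is a description of one pair of plants.

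By their locus numbers the members lay on all 12 chromosomes. Chromosomes 11 and 12, picked out after the counts were seen, held 13 and 15 members. Together these were 20.4% of the 137, against 10.3% of the genes in the table. Chromosomes 3 and 4 lay the other way, with 8.03% and 5.11% of the members against 13.3% and 8.75% of the table. These shares were not tested. The ends of chromosomes 11 and 12 hold a duplicated block in rice, and a short tag cannot always tell near-identical copies apart. No sequences were compared, so which members have such a copy was not checked, and the counts of members on chromosomes 11 and 12 are uncertain to that extent. Members with near numbers (up to 100 steps on one chromosome) formed 3 pairs. LOC_Os08g38250 and LOC_Os08g38280 had an r of 0.75 over the 12 flowering panicles, LOC_Os01g40140 and LOC_Os01g40150 of 0.73, and LOC_Os06g28990 and LOC_Os06g29080 of 0.28. All 6 genes were in the common pattern.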

How the data were processed

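DGE tag counts per gene were deposited by the authors, as were TPM values (a CPM with no length term, despite the name) and RNA-seq values in RPKM. Each deposited TPM value times its library total gave the deposited count, with a largest deviation of 2.04e-10. BWA and edgeR 3.6.8 are named per the submitters' processing notes, and the genome build was not given in the sources used here. Members, marker lists and pattern groups were chosen with earlier results of these data known. Species and year were tested on the counts with edgeR 4.0.16 under R 4.3.3: TMM, filterByExpr, glmQLFTest and Benjamini-Hochberg over all genes tested, at an adjusted p under 0.05, after a run on simulated data. Alternatives used DESeq2 1.42.0 and limma 3.58.1. The interaction, and the pattern groups on other scales or libraries, were added after seeing the data. DGE tissue differences were used by the rule and were not tested. Named genes are the first 12 by the smaller flowering mean, those called, the 5 highest by the smaller flowering RPKM, members at the lowest (9 tied at 0, of which those at 0 in both species are named there), the 3 highest of each pattern group and the 5 most like each of 2 marker sums. Of the 7 members higher in 2010, 3 are named for that difference. Replicates are plants as far as titles show. Libraries of 1 group had r from 0.518 to 0.915 and no 2 were identical. RPKM files give no read totals, so RNA-seq depth is unknown, and their columns were matched by title.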

Additional observations from a re-analysis of the deposited data

Results flagged for a closer look

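Over 40 sets of 6 plants, 17 values lay far from the other 5 by Dixon's criterion. Chance meets it in about 1 in 20 for normally distributed values. Here the values were TPM without a log and small counts, and the sets share libraries, so that rate need not hold. The 17 values are a description and are not set against it. Most belonged to O. rufipogon plant 230 at flowering. Its summed level was 17555 TPM against 1207 to 5602 in the others, and its common-pattern sum was 17456. Plant 230 also stood apart in LOC_Os08g38250 (1165), LOC_Os06g47110 (1268), LOC_Os03g44750 (858), LOC_Os06g40890 (809), LOC_Os01g09730 (708), LOC_Os09g09460 (477), LOC_Os07g13580 (398.5) and LOC_Os06g05272 (383 TPM). These genes share their library and are not separate observations. O. nivara plant 25 stood apart in LOC_Os02g10530 (1236), LOC_Os07g13580 (414) and LOC_Os06g05272 (568). O. rufipogon plant 50 did so in the opposite-pattern sum, at 245 against 17.6 to 98.8.

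In O. nivara heading panicles, plant 52 stood apart with a summed level of 371 against 36.0 to 94.9, and with 22 members at 5 TPM or more against 0 to 3. In O. nivara flag leaves, plant 40 had 1 member at that level and the other 5 plants had 0.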

How the results depend on the processing

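Calls among the 137 genes depended on the fit, and so did those among all genes. Between species, the count lower in O. nivara (3) was 11 with DESeq2 (8.03%, against 5.64% of all genes in that fit). It was 6 with limma-trend (4.38% against 1.16%). It was 0 with no year term, among plants of 2009, among plants of 2010 and without plants 34 and 197. In that order, these fits tested 108, 113, 115 and 136 members. All genes lower in them were 0.201%, 0.0631%, 0.0445% and 0.0685%. Leaving out 1 plant gave 0 to 6, against 0.121% to 3.22% of all genes. The count higher (0) was 1 with DESeq2 (0.730%, against 4.95% of all genes). It was also 1 with all 36 libraries in 1 model (0.730% against 0.869%). Leaving out 1 plant gave 0 to 2, against 0.0263% to 1.86% of all genes. Between years, the count higher in 2010 (7) was 4 with limma-trend and 4 with all 36 libraries (2.92% each, against 10.2% and 9.53% of all genes). It was 1 of 108 tested with no species term (0.926% against 8.23%). In O. nivara alone it was 0 of 105, against 0.725% of all genes. Leaving out 1 plant gave 4 to 9, against 7.11% to 9.09% of all genes. The count lower (1) was 3 with DESeq2 (2.19%, against 12.4% of all genes). It was 0 with no species term and 0 in O. nivara alone, against 6.93% and 0.771% of all genes. Leaving out 1 plant gave 1 to 11, against 5.10% to 8.33% of all genes. The interaction was called in 2 members by DESeq2. The cause was not tested. RLE scaling and no filter on low counts moved no count by over 1.5 times. No called member changed direction under any alternative in which it was tested.

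In RNA-seq, the 88 genes past 4-fold in O. rufipogon were 52 with a pseudocount of 1 RPKM and 47 at 16-fold, and the 80 in both species were 49 and 44. A limit of 1 TPM left 63 members, all 63 among the 137. Of 150 genes taken under a limit of 5 TPM, 58 were among the 137, and of 150 by group medians, 39. With TMM scaling 124 of 150 were shared. The largest pattern group was the same 126 genes with deposited values. Without plants 34 and 197 it held 132 genes, 123 of them from the common pattern. Most genes of the opposite pattern joined it there, so that pattern did not stay apart without those 2 plants. No paired analysis was possible because the species share no plant number. Each p sets a group difference against a spread estimated from few plants. Members of under 2 TPM in a species rest on few counts.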
